A study of Mus musculus with 12 samples.

Results

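The regions described here are the intergenic intervals that the mouse array tiles with probes for long intergenic non-coding RNAs (lincRNAs). Each of these probes carries a genomic interval in place of a gene symbol, with an F for the forward (plus) or an R for the reverse (minus) strand of the mm9 (NCBI37) build. The array holds 16181 such interval probes in 3540 intervals, next to 39500 gene probes, or 55681 probes in all. An interval probe was kept when, in any group, 3 or 4 of the 4 arrays carried the scanner software's mark for a signal well above background, and 3832 probes (23.7%) in 1622 intervals (45.8%) were kept. By the same rule, 20761 gene probes (52.6%) were kept, which gave 24593 kept probes in all.

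The arrays measured left ventricular RNA (wall and apex, without the septum) of mice aged 6 months, with 1 array per mouse and 4 mice per group. In both mutants, Floxed-Nkx2-5-Δneo alleles had been recombined by the tamoxifen-inducible Cx40-creERT2 allele, in which Cre follows Cx40 (a gap junction protein of the trabeculae). Tamoxifen was given to the pregnant females at E10-11 (embryonic days) for TrbE10 mice, labelled Nkx2-5Δtrab, and at E13-14 for TrbE14 mice, labelled Nkx2-5Δcomp. The labels describe the control mice as not injected, whereas the methods of the study describe control littermates that carry the floxed alleles without Cre. Deletion is limited to cells in which Cx40 drove Cre while tamoxifen was active, and to cells derived from them. Ventricular RNA therefore also holds RNA of cells with intact Nkx2-5. Differences in the number of cells of a type and in RNA per cell cannot be told apart in such tissue. All TrbE10 arrays lay on 1 slide and the control and TrbE14 arrays on another. Every comparison with TrbE10 is therefore also a comparison of slides.

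LincRNAs are transcribed from regions between protein-coding genes, are often spliced and polyadenylated like messenger RNA, and usually reach lower levels than messenger RNA. Some act on the chromatin of neighbouring genes or as scaffolds for proteins, and in the heart several take part in lineage commitment and in the response to stress, but for most no function is known. An interval is a stretch in which transcription was inferred, so that a probe in it may lie in an exon, an intron or an extension of a neighbouring gene; which of these applies was not determined here, since no annotation of the mm9 build was used.

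The probes on which the results turn are shown first, as the 60 bases printed on the array, 5′ to 3′ on the strand of the name. The interval at chr19:19005109-19008657 on the reverse strand held the only interval probes called in both mutants, and its 3 probes at chr19:19005110-19005169, chr19:19005198-19005257 and chr19:19005977-19006036 follow in this order.
A_30_P01025044: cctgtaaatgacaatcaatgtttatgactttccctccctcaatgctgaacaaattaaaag
A_30_P01031958: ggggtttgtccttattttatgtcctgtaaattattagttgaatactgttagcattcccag
A_30_P01022245: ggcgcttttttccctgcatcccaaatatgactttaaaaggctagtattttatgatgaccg
The interval at chr2:65240793-65292293 is shown because its 2 kept reverse-strand probes, which start at chr2:65253048 and chr2:65253199, gave different results in TrbE10 hearts.
A_30_P01030392: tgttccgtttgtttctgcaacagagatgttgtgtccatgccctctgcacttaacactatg
A_30_P01027432: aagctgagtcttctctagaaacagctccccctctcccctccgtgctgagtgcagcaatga
In the interval at chr7:4827340-4863315, beside Isoc2a, a forward and a reverse probe read the same bases on opposite strands, and the capitals mark the bases that both cover (the forward probe at chr7:4843443-4843502, the reverse probe at chr7:4843433-4843492). The third is the forward probe called in TrbE14 hearts.
A_30_P01029418: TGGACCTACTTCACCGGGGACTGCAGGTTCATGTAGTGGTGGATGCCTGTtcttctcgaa
A_30_P01023250: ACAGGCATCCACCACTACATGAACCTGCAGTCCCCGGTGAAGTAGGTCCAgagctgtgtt
A_30_P01029750: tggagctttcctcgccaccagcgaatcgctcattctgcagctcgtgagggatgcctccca
Each of the next 4 probes was the only called probe of its interval: A_30_P01025995 at chr13:48632532-48632591 and A_30_P01019478 at chr16:4869068-4869127 were called lower in TrbE10 hearts, A_30_P01019546 at chr1:141827418-141827477 higher in TrbE10 hearts, and A_30_P01020964 at chr5:119957083-119957142 lower in TrbE14 hearts.
A_30_P01025995: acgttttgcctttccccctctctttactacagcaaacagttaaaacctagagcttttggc
A_30_P01019478: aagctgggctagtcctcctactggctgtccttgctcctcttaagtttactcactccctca
A_30_P01019546: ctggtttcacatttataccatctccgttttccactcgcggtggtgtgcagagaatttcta
A_30_P01020964: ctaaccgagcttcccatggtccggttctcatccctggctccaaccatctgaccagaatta
The last pair, at chr15:32170366-32170425 and chr15:32170389-32170448 on the reverse strand, belongs to 2 intervals that overlap, and the capitals mark the bases that both probes cover.
A_30_P01019643: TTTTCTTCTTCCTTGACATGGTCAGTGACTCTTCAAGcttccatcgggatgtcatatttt
A_30_P01029468: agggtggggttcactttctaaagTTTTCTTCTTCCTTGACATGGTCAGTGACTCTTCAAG

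Intervals had a median length of 7316 bp (62 to 7128487 bp) and carried 1 to 20 probes each (median 3). After overlapping intervals were merged, whatever their strand, 2223 separate stretches remained, so that neighbouring intervals are not independent of each other. All 16063 interval probes that have a coordinate lay inside their interval and on the strand of their name. A further 118 interval probes, 34 of them kept, have no coordinate in the files. Intervals with a kept probe had a median length of 10929 bp, against 3561 bp for those without.

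Most of the interval probes were dark in these hearts. On the 4 control arrays, 4148, 4098, 3605 and 3337 interval probes were well above background. The counts were 3766, 3450, 3791 and 3598 on the TrbE10 arrays and 3745, 3941, 4632 and 3836 on the TrbE14 arrays. The ranges of the 3 groups overlap, with the lowest count on a control array and the highest on a TrbE14 array. Over all 12 arrays, 2534 interval probes were above background on every array and 9754 on none. Control hearts alone kept 179 probes, TrbE10 hearts alone 108 and TrbE14 hearts alone 140, while 3005 probes were kept in all 3 groups. The share kept ran from 15.8% on chromosome 9 to 30.1% on chromosome 19. Kept interval probes were dim, with a median log2 signal of 6.08 over the 12 arrays against 8.50 for kept gene probes, and their median SD across control arrays was 0.254 against 0.166 (log2).

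Detection was then counted by strand. Of the 1067 intervals probed on both strands, 200 (18.7%) had kept probes on the forward strand only and 246 (23.1%) on the reverse strand only. Both strands were kept in 301 (28.2%) and neither in 320. In some places a forward and a reverse probe cover the same bases. There were 1582 pairs with 30 or more bases in common, in 664 intervals: 217 had only the forward probe kept, 279 only the reverse probe, 113 both and 973 neither. With so few probes kept, most pairs with a kept probe would be kept on 1 strand even if the strands were detected independently, so these counts are a description. Over the whole array, 22.2% of 8171 forward and 25.2% of 8010 reverse probes were kept. The base composition also differed, since 58.4% of the 604 interval probes with 60% or more G and C were kept against 16.4% of the 4196 probes with under 40%. For gene probes the corresponding shares were 72.0% and 48.3%.

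Interval probes were kept most often where a detected gene lay close by on the same strand. The nearest gene probe was taken from the 30953 gene probes that have a coordinate and a name in the RefSeq table. With a gap under 2 kb to a kept gene probe on the same strand, 57.3% of 543 interval probes were kept. With a kept gene probe at that distance on the opposite strand, the share was 22.7% of 673 probes. Where the same-strand gene probe was itself not kept, it was 15.4% of 531 probes. Of the interval probes in the first class, 80 overlap the gene probe (85.0% kept), and without these the share was 52.5% of 463 probes. At 2 to 10 kb the share beside a kept same-strand gene probe was 36.5%, at 10 to 50 kb 27.5% and beyond 50 kb 25.3%, while the opposite-strand shares stayed between 19.6% and 21.5%. These shares are descriptions, since probes of 1 interval and intervals of 1 gene share their source.

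**Figure D1:**
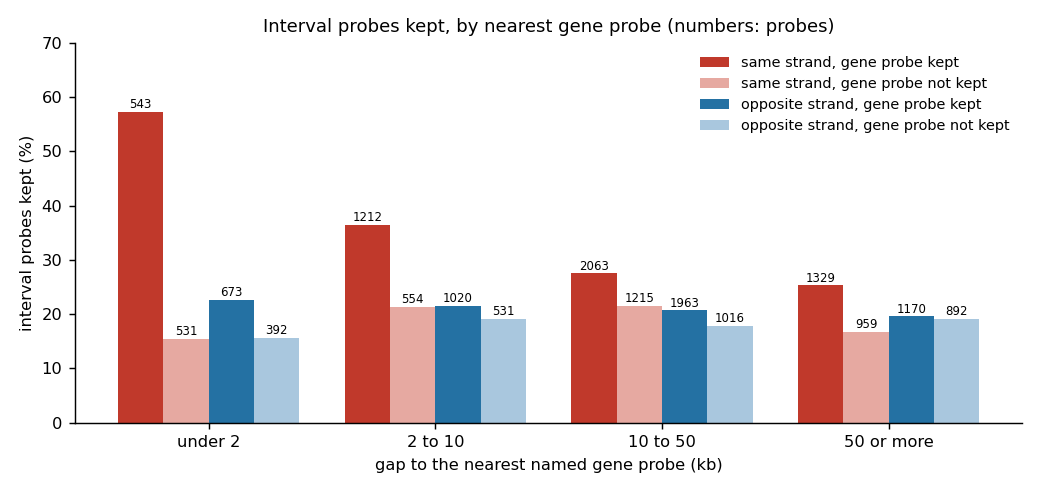
Percentage of interval probes kept (vertical axis) by the gap in kb to the nearest named gene probe (horizontal axis), split by the strand of that gene probe and by whether it was kept itself, with the number of interval probes above each bar. Beside a kept gene probe on the same strand the share falls from 57.3% under 2 kb to 25.3% beyond 50 kb, whereas the other 3 classes lie between 15.4% and 22.7% at every distance.

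A small number of interval probes changed in TrbE10 hearts, and most of these were lower. At a limma adjusted p under 0.05 (Benjamini-Hochberg over the 24593 kept probes), 40 interval probes in TrbE10 hearts passed, or 1.04% of those kept, against 1.69% of all kept probes. Of the 40, 9 were higher (all kept probes: 1.08% called higher) and 31 lower (0.61% of all kept probes). For gene probes, 257 of the 376 gene probes called in TrbE10 hearts were higher, or 68.4%. The groups' arrays did not overlap for 9.11% of interval probes (all probes: 10.1%). The median log2 change was -0.08 for interval probes and -0.02 for gene probes, with a negative change at 2307 of 3832 interval probes. Without control replicate 3 the count was 10 (6 higher, 4 lower), without control replicate 4 it was 8 (4 higher, 4 lower), and without TrbE10 replicate 3 it was 7 (3 higher, 4 lower). The excess of lower probes among those called was thus absent or small when any of these 3 arrays was left out. Calls over all kept probes also fell in these fits, from 416 to 207, 186 and 159, so the drop is not particular to interval probes. The count of interval probes was 17 to 25 without control replicate 1 or 2, TrbE10 replicate 1 or 4, or TrbE14 replicate 2 (222 to 317 of all kept probes). Lower probes were in the majority each time. An unadjusted p under 0.05 was reached by 622 interval probes (16.2%, against 16.4% of all kept probes), 160 higher and 462 lower, and by 1672 gene probes higher and 1728 lower.

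The called probes were described by where they were detected. Of the 31 lower probes, 29 were above background on all 4 control arrays and 3 were kept through control alone, while 5 were above background on no TrbE10 array. Of the 9 higher probes, 3 had not been kept through control. The 31 lower probes were spread over 30 intervals, and their median log2 changes were -0.73 (TrbE10) and -0.28 (TrbE14), both against the same controls. The 9 higher probes came from 7 intervals and had medians of 1.30 and 0.98.

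The lower probes were also rich in G and C. Their median G and C content was 51.7% (35.0% to 83.3%), against 40% for the 9 higher probes and 45% for all kept interval probes. Across kept interval probes, the median log2 change in TrbE10 hearts was 0.01 for probes with under 40% G and C, -0.06 from 40% to 50%, -0.16 from 50% to 60% and -0.17 at 60% or more. The corresponding values in TrbE14 hearts showed no such order, at -0.06, -0.04, -0.06 and -0.05. For gene probes the TrbE10 medians were -0.004, -0.018, -0.051 and -0.082. Their TrbE14 medians had an order in the other direction, at -0.042, -0.024, -0.012 and 0.0. All TrbE10 arrays lay on 1 slide and all other arrays on another, so that slide and group cannot be told apart for TrbE10; the control and TrbE14 arrays shared a slide. Within bands of mean signal, interval probes had a lower median change in TrbE10 than gene probes up to a log2 signal of 9. Below a log2 signal of 5 the medians were -0.18 and 0.04, and from 7 to 9 they were -0.06 and -0.02. At a log2 signal of 9 or more they were 0.00 and -0.02. What part base composition, signal and slide have in these changes was not tested.

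**Figure D2:**
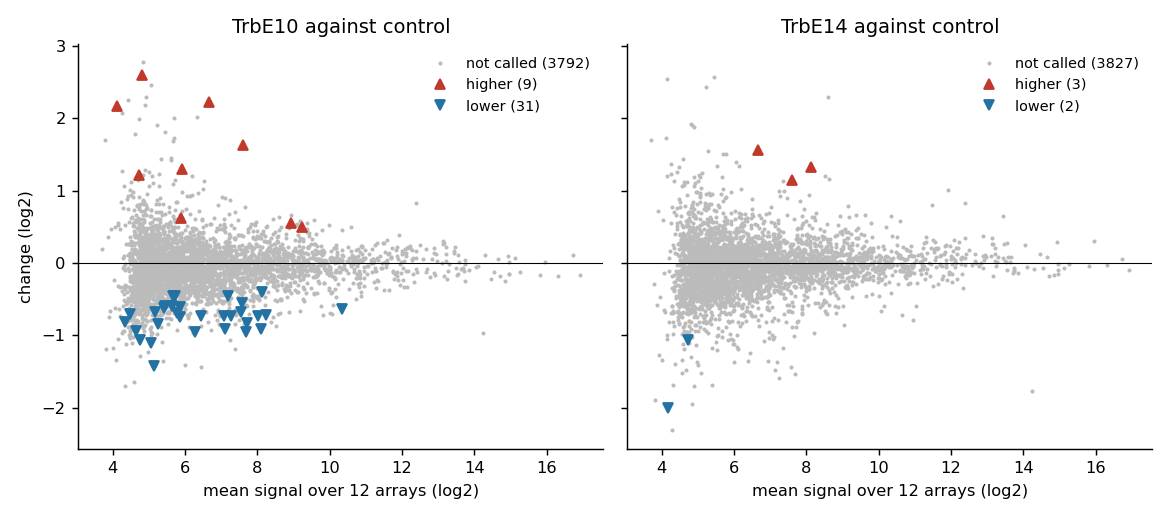
Log2 change against control (vertical axis) by mean log2 signal over the 12 arrays (horizontal axis) for the 3832 kept interval probes, in TrbE10 hearts on the left and TrbE14 hearts on the right. Triangles mark probes called at an adjusted p under 0.05: 9 higher and 31 lower in TrbE10, 3 higher and 2 lower in TrbE14.

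In TrbE14 hearts, 5 interval probes were called, or 0.13% of those kept (all kept probes: 0.602%). Of these, 3 were higher (all kept probes: 0.468%) and 2 lower (0.134%). Arrays did not overlap for 5.25% of interval probes (all probes: 9.43%). The count was 2 without control replicate 3, 8 without TrbE14 replicate 1 and 10 without TrbE10 replicate 2. Between TrbE10 and TrbE14 hearts, limma called 0 interval probes, and 0 of all kept probes (0%). At an unadjusted p under 0.05, the difference between the mutants held for 335 interval probes (8.74%), against 5.21% of gene probes, with 242 of the 335 lower in TrbE10. The smallest adjusted p of that comparison was 0.141. Slide and group cannot be told apart in it, since TrbE10 and TrbE14 arrays lay on different slides.

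The 3 probes of the reverse-strand interval at chr19:19005109-19008657 rose in TrbE10 hearts, and 2 of them rose in TrbE14 hearts as well. This was the only stretch with 3 or more called interval probes less than 200 kb apart. The interval overlaps the reported position of a Rorb probe on the same strand; Rorb encodes an orphan nuclear receptor of the ROR family. Probe A_30_P01031958 had log2 signals of 5.02, 6.12, 5.38 and 5.03 in control hearts, 7.71, 7.51, 7.42 and 7.82 in TrbE10 hearts, and 7.08, 7.14, 6.95 and 6.65 in TrbE14 hearts. Every mutant array lay above every control array, and every TrbE10 array above every TrbE14 array. The log2 change was 2.23 ± 0.22 (SE, n = 4 per group, limma adjusted p = 0.000659) in TrbE10 and 1.57 ± 0.22 (limma adjusted p = 0.00896) in TrbE14 hearts. Between the mutants the direct difference was 0.66 ± 0.22 and did not pass (limma adjusted p = 0.713).

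Its neighbour A_30_P01025044 read 6.33, 7.10, 6.72 and 6.53 in control hearts, 8.44, 8.21, 8.16 and 8.40 in TrbE10 hearts and 7.94, 8.12, 7.84 and 7.35 in TrbE14 hearts. Again no mutant array overlapped the controls, with changes of 1.63 ± 0.19 (limma adjusted p = 0.00169) and 1.14 ± 0.19 (limma adjusted p = 0.0213). The TrbE14 call of this probe was lost in the fit without a filter, in the fit of both groups alone and without any 1 of control replicates 1, 3 and 4 or of TrbE14 replicates 1, 2 and 3 (adjusted p up to 0.0739 over all alternatives). The third probe, A_30_P01022245, was above background on 1 control array and on all mutant arrays. It read 4.65, 3.95, 2.31 and 2.32 in control, 5.89, 6.12, 5.93 and 5.70 in TrbE10 and 5.35, 5.58, 5.06 and 4.90 in TrbE14 hearts. It passed the filter through the mutants and not through control, so its fitted change rests largely on control values that were not well above background. That fitted change was 2.60 ± 0.46 in TrbE10 hearts (limma adjusted p = 0.0185; lost without a filter, in the fit of both groups alone and without TrbE10 replicate 1 or 3). In TrbE14 hearts it was 1.92 ± 0.46 and did not pass (limma adjusted p = 0.101).

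The gene probes beside this interval moved with it. The Rorb probe A_66_P118699, at chr19:19006883-19006942 and 847 bp from the nearest interval probe, changed by 1.83 ± 0.23 in TrbE10 (limma adjusted p = 0.00312) and 1.29 ± 0.23 in TrbE14 hearts (limma adjusted p = 0.0341). The second Rorb probe, A_55_P2290388 at chr19:19012149-19012208, was above background on no control array and on all mutant arrays (limma adjusted p = 0.00271 in TrbE10 and 0.033 in TrbE14). This second probe passed the filter through the mutants alone, so these values rest on control signals that were not well above background. On the other side the nearest named gene probe belongs to Trpm6, a cation channel gene, 38110 bp away on the opposite strand, and was not kept. The exact two-sided permutation test over 8 arrays gave p = 0.0286 for each of the 3 interval probes in each mutant, which is the smallest p that the 70 label orders allow. Groups whose arrays do not overlap always give this p. Probes were named in TrbE10 from called probes whose arrays did not overlap, so the p adds no support there.

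**Figure D3:**
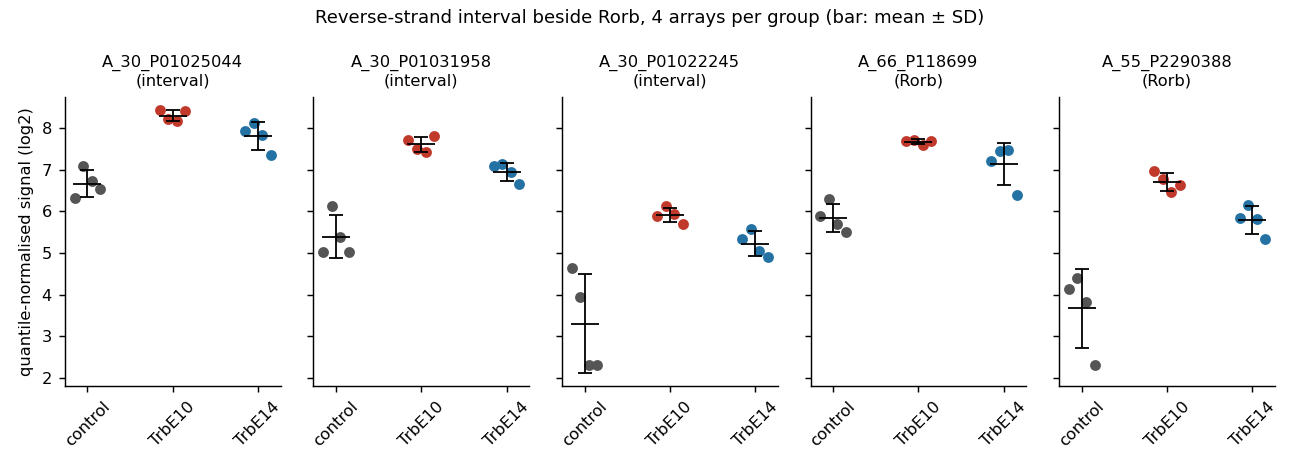
Quantile-normalised log2 signal (vertical axis) of the 3 probes of the reverse-strand interval beside Rorb and of the 2 Rorb probes, on each of the 4 arrays of the control, TrbE10 and TrbE14 groups; dots are arrays and bars the mean ± SD. In every panel all TrbE10 and TrbE14 arrays lie above all control arrays, for example 7.42 to 7.82 and 6.65 to 7.14 against 5.02 to 6.12 for A_30_P01031958.

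Each of the other intervals called higher in TrbE10 hearts held 1 called probe. In the forward-strand interval at chr1:141824450-141835125, probe A_30_P01019546 was above background on 0 control arrays, 3 TrbE10 arrays and 2 TrbE14 arrays. It read 2.46, 2.89, 2.36 and 3.57 in control, 5.41, 4.24, 5.20 and 5.13 in TrbE10 and 5.00, 4.00, 4.13 and 5.07 in TrbE14 hearts. TrbE10 hearts exceeded control by at least 1.35-fold, where the control level is bounded by the lowest detected signals of its arrays (limma adjusted p = 0.0121 in TrbE10 and 0.0575 in TrbE14). It passed the filter through TrbE10 alone. The 1 other kept probe of the interval, A_30_P01026213, changed by 0.66 in TrbE10 and -0.86 in TrbE14 hearts (limma adjusted p = 0.408 and 0.342). A probe of Cfhr2, a gene of the complement system, lies 109150 bp away on the opposite strand and changed by 1.11 in TrbE10 hearts (limma adjusted p = 0.0333), and a second Cfhr2 probe changed by 0.97 (limma adjusted p = 0.0318).

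Probe A_30_P01020075 of the forward-strand interval at chr9:14460976-14488051 was above background on 0 control, 4 TrbE10 and 2 TrbE14 arrays. It read 4.13, 4.38, 4.50 and 3.51 in control and 5.29, 5.53, 5.34 and 5.23 in TrbE10 hearts, which is at least 1.72-fold higher (limma adjusted p = 0.0431). It too passed the filter through TrbE10 alone. The TrbE14 arrays, at 4.38, 5.21, 4.15 and 5.10, overlapped the controls and lay below all TrbE10 arrays. Between the mutants the direct difference did not pass (limma adjusted p = 0.842). The named neighbours of this probe, Gm7607 and Piwil4 (a gene of the piRNA pathway), were not kept. The reverse-strand probe A_30_P01020922 of chrX:91000651-91005855 changed by 1.30 ± 0.28 in TrbE10 hearts (limma adjusted p = 0.0477), while the other kept probe of the interval changed by 0.26. The nearest probe of Pdk3, a pyruvate dehydrogenase kinase gene, lies 9319 bp away on the same strand and changed by 0.35 (limma adjusted p = 0.318). With sex as a covariate, inferred from the signal of Y chromosome genes, the chrX and chr9 probes were no longer called. Each call held in 3 of the 12 fits that left out 1 array.

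The 2 called probes of chr15:32167516-32174427 and chr15:32167516-32174417, and that of chromosome 3 below, were added to the named probes after their values were seen. The chromosome 15 probes share bases, as shown above, and count as 1 signal rather than as 2. They changed by 0.55 and 0.50 in TrbE10 hearts (limma adjusted p = 0.0351 and 0.044) and by 0.43 and 0.40 in TrbE14 hearts (limma adjusted p = 0.133 and 0.154). A probe named LOC100616095 overlaps both on the same strand and changed by 0.59 in TrbE10 hearts (limma adjusted p = 0.0311). The 4 other kept reverse-strand probes of the first interval changed by 0.35 to 0.53. The remaining higher probe, in the forward-strand interval at chr3:92065425-92086850, changed by 0.62 (limma adjusted p = 0.0236), and the other kept probe of its interval changed by 0.90. It lies beside Sprr2a2, a gene of the small proline-rich family, whose probe at 5836 bp on the same strand changed by 0.00.

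Of the 15 called probes with the largest change in TrbE10 hearts, 9 were lower, and the lowest adjusted p among these belonged to the forward-strand interval at chr13:48620882-48643532. Probe A_30_P01025995 read 8.26, 7.98, 8.07 and 8.10 in control, 7.5, 7.17, 6.95 and 6.99 in TrbE10 and 7.99, 7.63, 7.67 and 7.78 in TrbE14 hearts. All TrbE10 arrays lay below the other 8. The change was -0.95 ± 0.13 in TrbE10 (limma adjusted p = 0.00468) and -0.34 ± 0.13 in TrbE14 hearts (limma adjusted p = 0.302). Between the mutants the direct difference was -0.62 ± 0.13 and did not pass (limma adjusted p = 0.307). The 5 other kept forward probes of this interval changed by -0.35 to 0.17 in TrbE10 hearts, and none was called. The 3 kept reverse probes, which start at chr13:48630909, chr13:48630969 and chr13:48631041, changed by 0.01 to 0.03. A kept gene probe of 6720427I07Rik at chr13:48630917-48630976, inside the interval on the reverse strand, changed by -0.05, and a kept probe of the phosphatase gene Ptpdc1, 40650 bp away, by 0.11.

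In the reverse-strand interval at chr2:65240793-65292293, probe A_30_P01030392 was above background on all control and TrbE14 arrays and on 0 TrbE10 arrays. It read 5.96, 5.26, 5.51 and 5.79 in control, 4.72, 3.97, 3.8 and 4.33 in TrbE10 and 5.87, 5.27, 5.45 and 5.72 in TrbE14 hearts. All TrbE10 arrays lay below all others, which is at least 2.01-fold lower than control (limma adjusted p = 0.00956), while TrbE14 and control arrays overlapped (-0.05 ± 0.22). The other kept probe of the interval, A_30_P01027432, lies on the same strand from chr2:65253199 to chr2:65253258 and read 10.32 to 10.70 in control and 10.30 to 10.68 in TrbE10 hearts. The groups overlapped, with a change of 0.07 (limma adjusted p = 0.831). Against TrbE14 hearts, A_30_P01030392 was at least 1.94-fold lower in TrbE10 hearts, which did not pass (limma adjusted p = 0.141). The nearest probes of named genes, 42568 bp away in Scn3a (a voltage-gated sodium channel gene) and 56823 bp away in Slc38a11 (an amino acid transporter gene), were not kept, whereas 3 other Scn3a probes were kept and not called.

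Probe A_30_P01019478 of the forward-strand interval at chr16:4867322-4874772 was called in TrbE10 hearts and not in TrbE14 hearts. It read 6.48, 6.19, 6.54 and 6.86 in control, 5.36, 5.78, 5.19 and 5.94 in TrbE10 and 6.94, 6.56, 6.70 and 6.90 in TrbE14 hearts. TrbE10 arrays lay below all others, and the change was -0.95 ± 0.19 (limma adjusted p = 0.0293), against 0.26 ± 0.19 (limma adjusted p = 0.552) in TrbE14 hearts. The direct difference between the mutants was -1.21 ± 0.19 (limma adjusted p = 0.141) and did not pass. The TrbE10 call was lost without a filter, in the fit of both groups alone, without control replicate 1, 3 or 4 and without TrbE10 replicate 1 or 3 (adjusted p up to 0.0859 over all alternatives). The other kept forward probe of the interval changed by -0.08, and the 2 kept reverse probes by -0.30 and -0.21. The neighbours 4930562C15Rik (1401 bp, same strand) and Gm10914 (115 bp, opposite strand) were not kept.

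The other lower probes among these had smaller or less stable changes. Probe A_30_P01031878 at chr3:87575891-87576343 changed by -0.92 (limma adjusted p = 0.0386) in TrbE10 and by 0.01 in TrbE14 hearts. The nearest probe of Pear1, a receptor gene, 11903 bp away on the opposite strand, was not kept. Probe A_30_P01025350 at chr1:38886199-38892924 changed by -0.91 (limma adjusted p = 0.0386), between Lonrf2 and Chst10 probes, also not kept. Probe A_30_P01027401 at chr8:126268510-126290810 changed by -0.84 (limma adjusted p = 0.0217). The nearer named gene probe was not kept, and that on the other side, of Rab4a (a small GTPase gene of endosomal recycling) at 78445 bp on the same strand, changed by -0.74 and was not called (limma adjusted p = 0.253).

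The remaining 3 were dim in TrbE10 hearts. The probe A_30_P01031260 of chr5:113772200-113772326, above background on 1 TrbE10 array, changed by -1.11 (limma adjusted p = 0.0259), beside Aym1 (-0.09, 14479 bp). The probe A_30_P01023035 of chr15:79276925-79286500 was at least 1.53-fold lower (limma adjusted p = 0.0488), beside the casein kinase gene Csnk1e (0.20, 30449 bp) and the potassium channel gene Kcnj4 (-0.41, 28211 bp). The probe A_30_P01019395 of chr7:137669441-137675722, which passed the filter through control alone, was at least 1.46-fold lower (limma adjusted p = 0.0454), beside Nsmce4a (0.01, 6497 bp). None of these gene probes was called in TrbE10 hearts. The last 2 calls held in 2 and 3 of the 12 fits that left out 1 array, and in 2 and 0 of the 6 other alternatives (adjusted p up to 0.123 and 0.135).

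Probes of 1 interval seldom passed together. Of the 31 lower probes, 21 had another kept probe of the same interval and strand, and in 2 cases, the pair on the reverse strand of 1 interval of chromosome 18, another one was called as well. In 17 of the 21, all other such probes had a negative change. Over all 36 kept probes of these intervals that were not called themselves, 29 had a negative change, with a median of -0.25 (-0.78 to 0.42), against -0.08 over all kept interval probes. A gene probe on either side was kept for 23 of the 31, and 0 of these were called. Over all kept probes 1.69% were called in TrbE10 hearts, so 0 in so small a set is no result about these probes. For the 9 higher probes the corresponding numbers were 8 kept and 4 called. These 4 were the same Rorb probe counted for 3 probes and a Cfhr2 probe 109150 bp away for 1. Only gene probes named in the RefSeq table were counted.

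The TrbE14 calls outside the interval beside Rorb concerned 3 intervals. Probe A_30_P01020964 of the forward-strand interval at chr5:119945358-119962612 read 4.86, 5.05, 5.39 and 4.94 in control, 4.38, 4.42, 4.75 and 4.16 in TrbE10 and 3.37, 3.50, 2.56 and 2.81 in TrbE14 hearts. All mutant arrays lay below the controls. The probe was above background on 3 control arrays and 0 mutant arrays, which makes it at least 1.52-fold lower in TrbE14 hearts (limma adjusted p = 0.00145). It passed the filter through control alone. No difference between the mutants is given, since both were not well above background. The other kept probe of the interval, from chr5:119957221 to chr5:119957280, changed by -0.43 in TrbE10 and -0.29 in TrbE14 hearts. The kept neighbouring gene probe, AW549542 at 63001 bp on the opposite strand, changed by 0.40 in TrbE14 hearts (limma adjusted p = 0.457).

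Probe A_30_P01030413 of chr6:83368261-83407280, forward strand, was above background on 3 control, 1 TrbE10 and 0 TrbE14 arrays and at least 1.74-fold lower in TrbE14 hearts (limma adjusted p = 0.0163). It also passed the filter through control alone, and with detection required on 9 of 12 arrays the TrbE14 calls were 3 higher and 0 lower. It read 5.58, 5.21, 5.30 and 4.99 in control and 4.52, 4.00, 4.26 and 4.05 in TrbE14 hearts, which do not overlap. The kept forward probes on either side of it, which start at chr6:83406215 and chr6:83406382, changed by 0.25 and -0.002 in TrbE14 hearts. The call was lost with scaling to the 75th percentile, with normexp and without control replicate 1 or 3 or TrbE14 replicate 2 or 4 (adjusted p up to 0.0672).

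In the interval at chr7:4827340-4863315, 4 of the 5 kept forward probes were higher in TrbE14 hearts by 1.20 to 2.29, and 1 of them passed. Probe A_30_P01029750 read 7.39, 7.62, 7.68 and 7.71 in control, 7.49, 7.54, 8.12 and 8.16 in TrbE10 and 8.62, 8.42, 9.05 and 9.61 in TrbE14 hearts. All TrbE14 arrays lay above all others, with a change of 1.32 ± 0.25 (limma adjusted p = 0.0417), and the TrbE10 arrays overlapped the controls. Between the mutants the direct difference did not pass (limma adjusted p = 0.376). The fifth probe, A_30_P01027439, changed by 0.13 (limma adjusted p = 0.667) and lies next to A_30_P01029235 on the same strand, which changed by 2.29 (limma adjusted p = 0.068). At the bases printed above, the forward probe A_30_P01029418 changed by 1.20 (limma adjusted p = 0.0567) and the reverse probe A_30_P01023250 by 0.52 (limma adjusted p = 0.491), above background on 1 control and 3 TrbE14 arrays.

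Of the genes beside this interval, Isoc2b was called in TrbE14 hearts and Isoc2a and Zfp628 were not. The probe of Isoc2a, an isochorismatase domain gene, lies inside the interval on the same strand, 436 bp from A_30_P01029750, and changed by 1.09 ± 0.26 (limma adjusted p = 0.107). The probe of its relative Isoc2b, on the opposite strand, changed by 1.51 ± 0.29 (limma adjusted p = 0.0467), and that of Zfp628, a zinc finger gene 27349 bp away, by 0.10 (limma adjusted p = 0.689). Within TrbE10 hearts, replicates 3 and 4 were above replicates 1 and 2 at the 4 forward probes, at Isoc2a and at Isoc2b (8.92 and 9.43 against 7.21 and 7.49 at A_30_P01029235). The call of A_30_P01029750 was lost without a filter, in the fit of both groups alone, with sex as a covariate, without any 1 of the control arrays, and without any 1 of TrbE10 replicates 1, 3 and 4 or TrbE14 replicates 1, 3 and 4 (adjusted p up to 0.11).

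**Figure D4:**
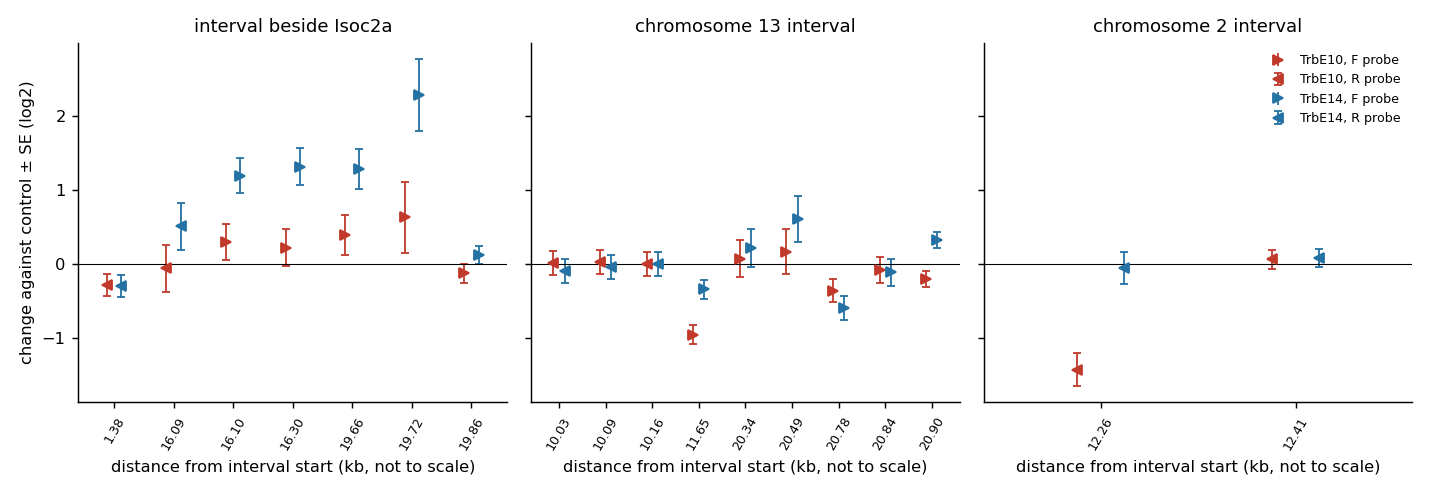
Log2 change against control with its SE (vertical axis) for every kept probe of 3 intervals, ordered by distance from the interval's start in kb (horizontal axis, probes evenly spaced); right-pointing triangles are forward and left-pointing triangles reverse probes, red for TrbE10 and blue for TrbE14. Beside Isoc2a 4 forward probes lie at 1.20 to 2.29 in TrbE14, whereas the intervals of chromosomes 13 and 2 each hold 1 probe called lower in TrbE10; the fitted value of the chromosome 2 probe is not a measured size, since no TrbE10 array was above background there (at least 2.01-fold lower).

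Across all kept probes, an interval probe and the closest gene probe changed alike where they lay within 2 kb on the same strand. Over 326 such pairs, in 150 intervals, the correlation of their log2 changes was r = 0.583 (Spearman 0.449) in TrbE10 and r = 0.646 (Spearman 0.572) in TrbE14 hearts. Without the interval beside Rorb it was 0.404 and 0.588, and without that interval and the probes that overlap their gene probe it was 0.361 and 0.52 (255 pairs); both were added after seeing the data. On the opposite strand, 158 pairs within 2 kb gave r = -0.055 and 0.032. Beyond 2 kb the same-strand values were 0.109 and 0.155 at 2 to 10 kb (505 pairs) and 0.172 and 0.18 at 10 to 50 kb (993 pairs). Gene probes and same-strand probes of another gene gave 0.821 and 0.564 within 2 kb (Spearman 0.529 and 0.443, 173 pairs). At 2 to 10 kb these gene pairs gave 0.117 and 0.079 (1587 pairs). These correlations run across probes on the same 12 arrays and are descriptions, since the pairs share arrays, controls and, often, a gene.

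**Figure D5:**
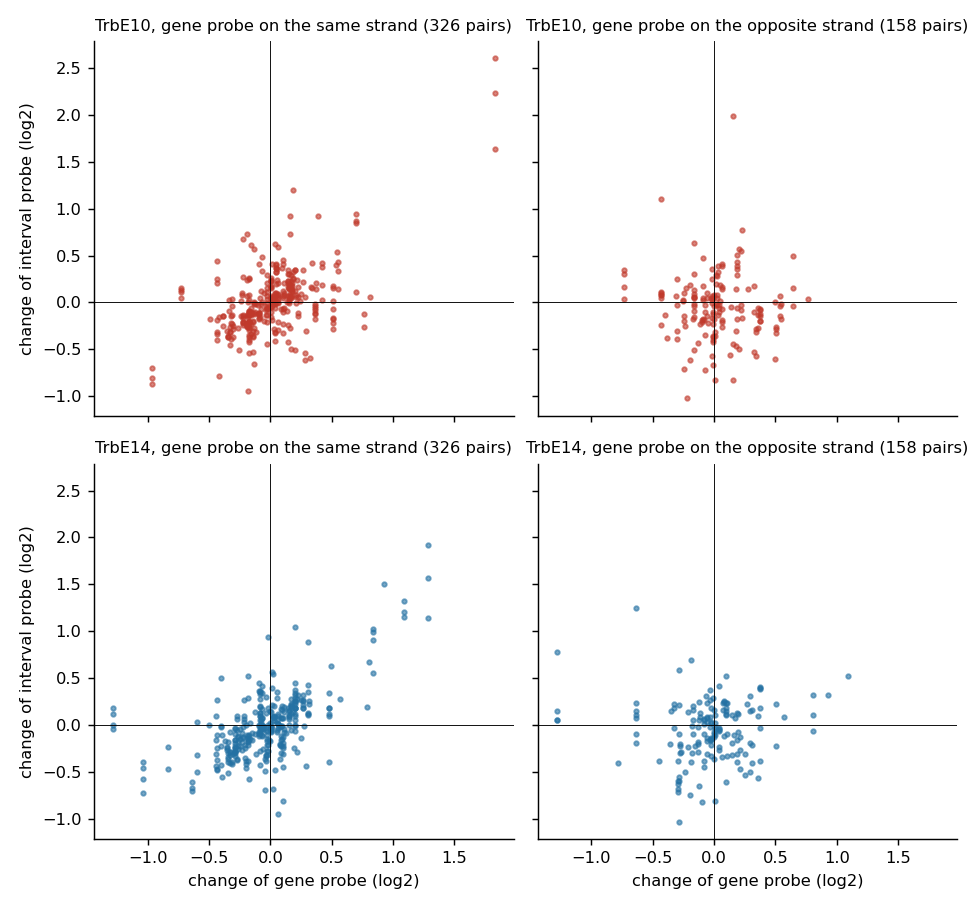
Log2 change of each kept interval probe (vertical axis) against that of the nearest kept gene probe within 2 kb (horizontal axis), in TrbE10 (upper panels) and TrbE14 hearts (lower panels), with the gene probe on the same strand on the left (326 pairs) and on the opposite strand on the right (158 pairs). The same-strand pairs gave r = 0.583 and 0.646, with the 3 probes beside Rorb at the upper right. Without the interval beside Rorb r was 0.404 and 0.588, and without overlapping probes as well 0.361 and 0.52. The opposite-strand pairs gave r = -0.055 and 0.032.

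Within intervals the correlation was also higher on the same strand. Neighbouring kept probes on the same strand of an interval gave r = 0.622 in TrbE10 and 0.588 in TrbE14 hearts (1884 pairs in 833 intervals), while a forward probe and the closest reverse probe of its interval gave 0.125 and 0.158 (674 pairs in 297 intervals). Some same-strand probes of an interval share bases. No value without such probes or without the interval beside Rorb is given for these pairs. As a measure of technical spread, 25 interval probes had the same 60 bases as a kept gene probe elsewhere on the array. The median absolute difference in log2 change within these pairs was 0.06 in both mutants, and the highest was 0.76 in TrbE10 and 0.70 in TrbE14 hearts. These highest values came from dim interval probes, with a mean log2 signal of 4.95 (0.06 against 0.81 in TrbE10) and 5.06 (0.52 against -0.18 in TrbE14). The median signal of kept interval probes was 6.08, so the 0.06 need not hold for the dim probes among them.

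Intervals near genes of cardiac transcription factors held 0 called probes, in a set small enough that the shares called over all kept probes (1.69% in TrbE10, 0.602% in TrbE14) give fewer than 1. Of a list of 40 such genes, 39 had a probe, 13 had interval probes within 100 kb and 9 had kept ones, 37 probes in 15 intervals. Their median change was 0.02 in TrbE10 and 0.11 in TrbE14 hearts, against -0.08 and -0.05 over all kept interval probes, and 6 and 3 of the 37 had an unadjusted limma p under 0.05 (all kept interval probes: 16.2% and 11.7%). Most of them, 21, lay within 100 kb of Nkx2-5, the deleted gene, and changed by -0.46 to 0.82 in TrbE10 and -0.63 to 0.67 in TrbE14 hearts. The nearest, A_30_P01020211 of the reverse-strand interval at chr17:26997231-27023120, lies 21938 bp from the Nkx2-5 probe and changed by 0.82 ± 0.35 (limma adjusted p = 0.283) and 0.67 ± 0.35 (limma adjusted p = 0.429).

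Nkx2-5 itself read 11.95, 12.23, 11.93 and 11.89 in control, 11.27, 11.67, 11.21 and 11.22 in TrbE10 and 11.12, 11.57, 11.32 and 11.63 in TrbE14 hearts. All mutant arrays lay below the controls, with changes of -0.66 ± 0.14 (limma adjusted p = 0.0459) and -0.59 ± 0.14 (limma adjusted p = 0.106). Whether this probe lies inside the floxed part of the gene was not determined.

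Near Tbx5, a T-box gene of the ventricles, the closest of 4 kept interval probes (chr5:120253747-120281800, reverse strand, 53085 bp away) changed by 0.04 in both mutants. Near the Iroquois gene Irx5, 4 kept probes changed by 0.11 to 0.95 in TrbE10 and 0.56 to 1.02 in TrbE14 hearts, the closest (chr8:94841965-94881130, 34484 bp) by 0.11 and 0.56 (limma adjusted p = 0.913 and 0.525). Near Foxc2, a forkhead gene, the closest (chr8:123649699-123649970, 7026 bp) changed by -0.76 and -0.24 (limma adjusted p = 0.463 and 0.839), while the probe of Foxc2 itself changed by 0.73 in TrbE10 hearts (limma adjusted p = 0.0358). Near the T-box gene Tbx20, 1 probe at 57283 bp changed by -0.57 and -0.15 (limma adjusted p = 0.165 and 0.741). The closest kept probes of Gata5, Mef2c, Mef2d and Irx4 changed by 0.13, -0.06, -0.38 and 0.17 in TrbE10 hearts, and none passed.

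Markers of several cell types were set beside these results. Of 7 ventricular cardiomyocyte markers all were kept and 0 called, with a summed log2 signal of 20.02 to 20.11 in control, 20.11 to 20.17 in TrbE10 and 19.99 to 20.09 in TrbE14 hearts. All 10 macrophage markers were kept, 10 had a positive change in TrbE10 (4 called) and 9 in TrbE14 hearts (1 called), and their summed log2 signal was 13.27 to 13.55, 14.08 to 14.33 and 13.91 to 14.01. All 6 fibroblast markers had a positive change in both mutants (1 called in each), with 16.03 to 16.20, 16.39 to 16.66 and 16.47 to 16.70. Of 4 atrial markers 1 was called higher in TrbE10, at 13.54 to 16.06, 15.33 to 17.28 and 16.24 to 16.54. Of 4 adipocyte markers 3 were kept (not Lep) and 0 called, at 9.82 to 11.02, 6.10 to 10.51 and 9.36 to 10.67. The 5 endothelial, 3 erythroid and 4 lymphocyte markers (Cd3g not kept) gave 0 calls, and of the skeletal muscle markers Myh1 and Myh4 were not kept while 1 of the other 2 was called lower in TrbE10 hearts. The part of these cell types in the interval probes' changes was not tested.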

How the data were processed

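Left ventricular RNA of 12 mice (4 per group) was labelled with Cy3 and hybridised to Agilent mouse arrays. Per the file headers, the deposited intensities were extracted with Agilent Feature Extraction 10.5, which subtracted background within each array and set a flag for signals well above it, on the mm9 build. The deposited log2 values of the authors' normalized and filtered table cover 19800 probes, 0 of them interval probes, and were not used for results. No columns of the authors' own comparisons were used.

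Processed intensities were log2-transformed and quantile-normalised over 55681 probes, without the 3671 control spots. Probes detected on 3 of 4 arrays of any group were fitted in limma 3.58.1 (R 4.3.3) with 1 mean per group, and p-values were adjusted by Benjamini-Hochberg over all 24593. A probe was called at an adjusted p under 0.05. The methods of the study were followed for the normalisation. The fit was also run on simulated arrays with known changes put in, as a check of the code that bears on no result here. Folds for groups not above background are lower bounds, the brighter group's mean against the lowest detected signals of the dim group. Single probes were also compared by exact permutation. The number of arrays limits the precision, and p-values rest on the spread between mice within the groups. They take no account of slide, which cannot be told apart from group for TrbE10.

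Named interval probes were those called in over 1 comparison, up to 15 per comparison by absolute change among those whose groups did not overlap, their neighbouring gene probes, the nearest kept interval probe within 100 kb of each gene of a list of cardiac transcription factors, any stretch of 3 or more called probes within 200 kb, and Nkx2-5. Gene names of 31065 of 39500 gene probes matched a RefSeq table (GRCm38.p6), used for names only. Some neighbouring genes are not reported here. Cell type marker lists covered ventricular, atrial, macrophage, fibroblast, endothelial, adipocyte, skeletal muscle, erythroid and lymphocyte genes. The members, lists and tests were chosen with earlier results of these data known. Alternatives covered the normalisation, background correction, filter, arrays fitted, replicate number and sex. The sample labels used here give no sex, so it was inferred from the mean signal of Ddx3y, Eif2s3y, Kdm5d and Uty. Tables were handled with pandas 2.3.3 and scipy 1.17.1 and plots drawn with matplotlib 3.10.9.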

Additional observations from a re-analysis of the deposited data

Results flagged for a closer look

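Among 84 groups of 4 arrays tested, 4 had 1 array far from the other 3, where chance gives about 1 in 20. The Nkx2-5 probe read 11.67 in TrbE10 replicate 2, against 11.21 to 11.27 in the other 3 TrbE10 hearts. The Rorb probe A_66_P118699 read 7.59 in TrbE10 replicate 3, against 7.69 to 7.71. The interval probe A_30_P01031260 of chr5:113772200-113772326 read 4.60 in TrbE14 replicate 4, against 5.25 to 5.37. The interval probe A_30_P01019395 of chr7:137669441-137675722 read 5.02 in TrbE14 replicate 3, against 4.37 to 4.47. The causes were not tested.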

How the results depend on the processing

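Of 668 alternative values for 36 results of named interval probes, 532 kept their side of the threshold, 131 were no longer called and 5 became called, while 0 of the called values changed sign. Of the 20 called values, 7, at 6 probes, were called under every alternative that gave a value. Among these probes, A_30_P01019546, A_30_P01030392 and A_30_P01020964 gave no value with detection required on 9 of 12 arrays. The count of 40 probes called in TrbE10 hearts was 15 without a filter on dim probes (8 of the 40 among them), 26 with only both groups in the fit (16 of the 40), and 7 to 59 when 1 array was left out (without TrbE10 replicate 3 and replicate 2). Of all kept probes, 416 were called in TrbE10 hearts, 159 without TrbE10 replicate 3 and 709 without TrbE10 replicate 2. For interval probes, scaling to the 75th percentile gave 55 (10 higher, 45 lower) and normexp 34 (11 higher, 23 lower). The count of 5 in TrbE14 hearts was 15 with normexp (4 of the 5 among them), 3 with detection required on 9 of 12 arrays (3 of the 5), 19 without a filter (3 of the 5), 8 with sex as a covariate (4 of the 5), and 2 to 10 when 1 array was left out (without control replicate 3 and TrbE10 replicate 2). Of all kept probes, 148 were called in TrbE14 hearts, 83 without control replicate 3 and 190 without TrbE10 replicate 2. Between the mutants, 2 interval probes were called without a filter. With the scanner's weaker mark of a significant signal, 10254 interval probes were kept. The correlation of an interval probe's change with that of the nearest gene probe, 0.139 in TrbE10 and 0.136 in TrbE14 hearts, was 0.001 and 0.029 with the nearest probe on the opposite strand. The causes were not tested.

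With the replicate number as a block, 27 probes were called in TrbE10 (17 of the 40 kept), 13 in TrbE14 (all 5 kept) and 1 between the mutants. Same-numbered arrays of different groups did not in general deviate together (12 pairs, r -0.242 to 0.476, median -0.049). No pairing by number was seen, but this check cannot exclude a pairing that has little effect on the signals. The authors' normalized table gave no value, since it holds 0 interval probes. Probes near the background, whose spread between control mice was larger, limit what 4 mice per group can show.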
